A study of Mus musculus with 6 samples.

Results

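Immunoglobulin V segments were detected at low levels in RNA sequencing libraries of CD3ε+ lymphocytes from the mouse small-intestinal epithelium. Of the 55487 genes in the deposited count table, 251 were annotated as immunoglobulin V, D or J segments. Of these, 83 had 30 or more counts summed over the 6 libraries, and these 83 members are described here. The members were thus chosen by their summed counts, which are given as a description. The members were 43 heavy-chain V segments, 38 kappa V segments and 2 lambda V segments. No D or J segment reached 30 counts, so the set holds V segments only, although D and J segments could have entered it. Of the other 168 segments, 64 had no count in any library and 104 had between 1 and 29 counts. The 83 members held 7833 of the 8857 counts assigned to all segments (88.4%).

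The cells were sorted alive from the epithelial compartment of wild-type (WT) C57BL/6J mice as CD3ε+CD45+, where CD3ε is a signalling chain that travels with the T cell receptor and CD45 is a phosphatase of all leukocytes. They were divided by B220, a CD45 epitope used to sort B cells, into 3 libraries of B220+CD3ε+CD45+ cells, which the labels name X cells, and 3 libraries of B220−CD3ε+CD45+ cells, named T cells. The comparison asks how the B220+ population differs from the other CD3ε+ cells of the same epithelium. The libraries held 11810859, 39591312 and 14173322 counts in B220+ replicates 1, 2 and 3, and 18773165, 17753655 and 11320363 counts in B220− replicates 1, 2 and 3. No label used here gives the age of the mice or ties the libraries to separate animals. The p-values therefore rest on differences between libraries that may be technical.

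An immunoglobulin is built from heavy and light chains, and each chain has a variable region that binds antigen. During B cell development, recombination joins a V, a D and a J segment in the heavy-chain locus, and a V and a J segment in the kappa or lambda light-chain locus. Each V segment consists of a leader exon and an exon for most of the variable domain, and the joint with D or J forms CDR3, the most variable of the antigen-contacting loops. Rearranged genes are transcribed at moderate levels in B cells and at very high levels in plasma cells, which in the gut wall mostly secrete IgA. T cells rearrange the related T cell receptor loci.

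The 3′ ends of 7 V segments are shown because the results below turn on these genes: the 4 that passed the test between the groups, the most abundant kappa and lambda segments, and an abundant heavy segment whose groups did not overlap. The sequences are the last 60 bases of the segment transcripts of GENCODE release M21 (GRCm38, the build also named mm10), written 5′ to 3′ on the coding strand. Capitals mark the last match to TNNTGT, which in the segments shown spells a tyrosine or phenylalanine codon and then TGT, the codon of the conserved cysteine ahead of CDR3.
Ighv1-72: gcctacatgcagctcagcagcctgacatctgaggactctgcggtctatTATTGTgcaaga
Ighv1-58: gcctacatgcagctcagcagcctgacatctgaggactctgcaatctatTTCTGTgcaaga
Ighv1-26: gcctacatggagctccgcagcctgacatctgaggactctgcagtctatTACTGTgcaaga
Igkv9-124: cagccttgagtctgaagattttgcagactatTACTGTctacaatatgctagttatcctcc
Igkv5-39: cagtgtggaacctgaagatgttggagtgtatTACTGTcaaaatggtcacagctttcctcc
Igkv14-111: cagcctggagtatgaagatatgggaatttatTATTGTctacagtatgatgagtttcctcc
Iglv1: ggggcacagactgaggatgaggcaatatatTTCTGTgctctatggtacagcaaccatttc
The heavy segments end shortly after the motif, whereas the kappa and lambda segments carry further bases of CDR3. Searched on the coding strand alone, TNNTGT lay in the last 60 bases of 70 of the 83 members (84.3%), of 79.8% of all 218 V segments and of 62.0% of 158 V pseudogenes. Most V segments, members or not, thus hold these letters in that window.

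Summed over members, V segment levels were lower in the B220+ libraries than in the same-numbered B220− libraries in every class, but the groups overlapped. Levels are counts per 1000000 counts of the scaled library total (CPM). All 83 segments together stood at 20.8, 30.4 and 78.3 CPM in B220+ replicates 1, 2 and 3, and at 30.1, 109 and 243 CPM in B220− replicates 1, 2 and 3. Replicate 3 was the highest library of each group, and B220+ replicate 3 lay above B220− replicate 1. These sums rest on 246, 1207 and 1108 counts in B220+ libraries and 560, 1927 and 2785 counts in B220− libraries, at most 0.0246% of a library's counts. The means were 43.2 ± 30.8 CPM in B220+ and 127 ± 108 CPM in B220− libraries (SD, n = 3 each), a 2.95-fold lower mean in B220+. In bulk RNA, a lower level from fewer cells of a type and one from less RNA per cell cannot be told apart. Between same-numbered libraries the sum was 1.45-fold, 3.59-fold and 3.11-fold lower in B220+. A single library set much of the size of the difference: without B220− replicate 3 the B220+ mean was 1.61-fold lower, and without B220+ replicate 3 it was 4.98-fold lower. No p-value is given for these sums, because the members were chosen with results of these data known.

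The 3 chain classes moved together from library to library. Heavy V segments summed to 11.0, 14.1 and 32.8 CPM in B220+ libraries and to 15.8, 52.6 and 118 CPM in B220− libraries. Kappa V segments summed to 9.07, 14.9 and 41.7 CPM in B220+ libraries and to 12.9, 52.6 and 113 CPM in B220− libraries. Lambda V segments summed to 0.763, 1.36 and 3.67 CPM in B220+ libraries and to 1.40, 3.90 and 11.8 CPM in B220− libraries. The lambda value of B220+ replicate 1 comes from 9 counts, for which the exact Poisson 95% interval is 0.349 to 1.45 CPM, and such intervals cover counting error only. The share of each class in the V counts varied little: heavy segments took 42.0% to 52.8% over the 6 libraries, kappa segments 42.9% to 53.3% and lambda segments 3.58% to 4.85%.

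**Figure D1:**
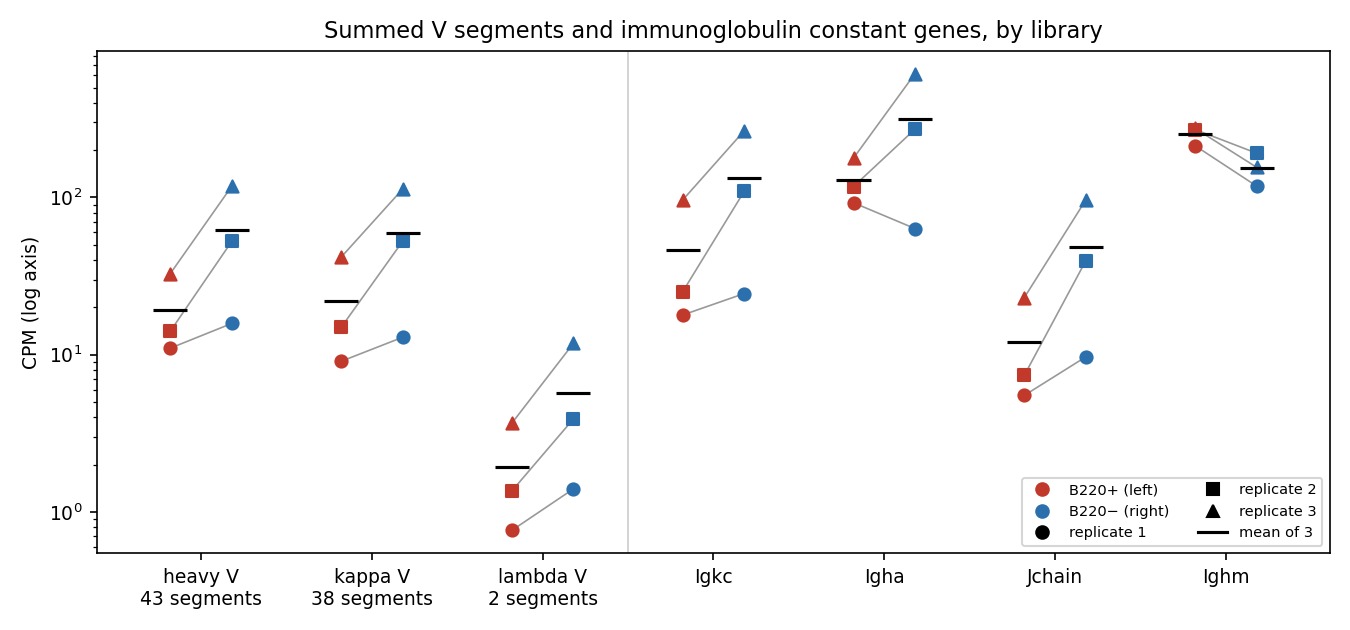
Summed CPM (log axis) of the heavy, kappa and lambda V segments and the CPM of 4 other immunoglobulin genes in each library, with B220+ libraries (red, left) beside B220− libraries (blue, right), symbols for the replicate number, grey lines joining libraries of the same number and black bars at the mean of 3. The V sums, Igkc and Jchain fan out in the same order in both groups, with replicate 3 highest (78.3 CPM for all V in B220+ and 243 CPM in B220−), while Ighm stands higher in B220+ in every same-numbered pair.

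Kappa V counts kept a close ratio to the kappa constant gene from library to library, as did all V counts to the joining chain. Igkc, the kappa constant region, stood at 17.9, 25.2 and 96.4 CPM in B220+ libraries and at 24.5, 110 and 266 CPM in B220− libraries. The ratio of kappa V counts to Igkc counts was 0.507, 0.590 and 0.433 in B220+ libraries and 0.527, 0.480 and 0.427 in B220− libraries, a spread of 1.38-fold where the kappa V sum itself had a spread of 12.5-fold. Jchain, which links IgA dimers and IgM pentamers in plasma cells, stood at 5.51, 7.39 and 23.1 CPM in B220+ and at 9.68, 39.6 and 96.4 CPM in B220− libraries. The ratio of all V counts to Jchain counts lay between 3.39 and 4.11 in B220+ and between 2.52 and 3.11 in B220− libraries. These ratios are of counts, not of levels per length, so they are compared between libraries only.

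Heavy V segments followed the IgA constant gene more closely than the IgM constant gene. Heavy V counts per count of Igha, the IgA heavy constant region, were 0.119, 0.120 and 0.184 in B220+ libraries and 0.250, 0.193 and 0.192 in B220− libraries, a 2.1-fold spread. These ratios were all lower in B220+, without overlap. Igha itself stood at 92.5, 117 and 178 CPM in B220+ libraries and at 63.4, 272 and 614 CPM in B220− libraries. In replicate 1 Igha was thus higher in B220+, where the heavy V sum was lower. Heavy V counts per count of Ighm were 0.0516, 0.0523 and 0.119 in B220+ libraries and 0.134, 0.275 and 0.757 in B220− libraries, a 14.7-fold spread. Ighm, the IgM heavy constant region, was at 213, 270 and 275 CPM in B220+ libraries and at 118, 191 and 156 CPM in B220− libraries, with no overlap between the groups. Its log2 fold change of 0.71 (SE 0.20) had an edgeR adjusted p of 0.095, and 8.4e-07 with the replicate number as a block. Ighd, the IgD heavy constant region, was at 8.39, 12.2 and 15.5 CPM in B220+ and 2.15, 6.56 and 3.49 CPM in B220− libraries (log2 fold change 1.56, edgeR adjusted p = 0.0775, and 4.5e-04 with the block). Of the 13 constant genes listed, 9 were tested and 0 were called by edgeR's quasi-likelihood test with Benjamini-Hochberg adjustment, while 2 had an unadjusted p under 0.05 and DESeq2 called 3.

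Markers of other cells were measured beside the segments, and their part in the results was not tested. Of 18 B cell markers, 8 were tested and 1 was called, Blk, a Src-family kinase of B cells and some γδ T cells, which was lower in B220+. The list summed to 224 to 242 CPM in B220+ and 227 to 245 CPM in B220− libraries, nearly all from Cd72 and Cd79b, while the defining genes Ms4a1, Pax5 and Ebf1 had at most 6 counts in any library. Of 14 plasma cell markers, 11 were tested and 3 were called, all lower in B220+: Irf4 and Prdm1, transcription factors that T cells also use, and Sdc1, the plasma cell surface proteoglycan CD138. That list summed to 755 to 810 CPM in B220+ and 857 to 1000 CPM in B220− libraries, mostly from Edem1, Xbp1 and Prdm1. Mzb1 was at 0 in every library. Of the tested plasma cell markers not called, Jchain, Pou2af1, Eaf2 and Edem1 had fold changes toward lower in B220+. Xbp1, Creld2, Derl3 and Txndc5 went the other way. Over all genes tested, 5.56% were called lower and 5.58% higher. Sdc1 stood at 0.508, 0.754 and 1.27 CPM in B220+ libraries and at 3.17, 1.75 and 6.37 CPM in B220− libraries (edgeR adjusted p = 0.0203). Some of these calls depended on single libraries. The call of Blk was lost without B220+ replicate 2 (adjusted p = 0.0585), and that of Sdc1 without B220+ replicate 1, B220+ replicate 2 or B220− replicate 3 (up to 0.127). The call of Prdm1 was lost without B220+ replicate 1 or 3 or B220− replicate 2 or 3 (up to 0.154). The 12 T cell markers, among them Cd3e and Trac, summed to 10500 to 11400 CPM in B220+ and 9430 to 9540 CPM in B220− libraries, and all 12 were tested. Of these, Cd8a, Trdc and Trgc1 were called higher and Cd247 lower in B220+. Without B220− replicate 3 the adjusted p became 0.0524 for Trdc and 0.0537 for Cd8a.

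The recombination machinery was examined as the pathway that forms V segment joints. Rag1 and Rag2, which cut the segments, had no count in any library. Dntt, which adds bases at the joints, stood at no more than 0.611 CPM. Of the 14 genes listed, the 10 that were tested included the end-joining genes Prkdc, Xrcc5, Xrcc6 and Lig4, and 0 were called by edgeR, by DESeq2 or at an unadjusted p under 0.05. Of the surrogate light chain genes, which pair with the heavy chain in B cell precursors, Vpreb1 was at 2.37, 2.69 and 2.12 CPM in B220+ and 1.34, 3.45 and 2.1 CPM in B220− libraries and was not called (edgeR adjusted p = 0.937). The list of 3 also holds Vpreb2, with no count, and Igll1, with 2 counts in B220+ replicate 2.

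Single V segments were tested with edgeR's quasi-likelihood test across the 14722 genes that passed the filter on low counts, and 42 of the 83 members passed that filter (21 heavy, 20 kappa and 1 lambda). A segment that passed only through the group where it was high had to differ, so the counts below describe the members tested in each fit and carry no weight for the rest. At an adjusted p under 0.05 (Benjamini-Hochberg), 4 of the 42 were lower in B220+ and 0 were higher, where 5.56% of all genes tested were lower and 5.58% higher. At an unadjusted p under 0.05 8 of the 42 were lower, where 10.9% of all genes tested were lower. DESeq2, run on all 83 members, called 9, all lower, where it called 5.03% of 17611 genes lower. The median log2 fold change of the 42 was −1.79, against −0.0074 for all genes tested. Of the 42, 40 were below 0, where 7585 of all 14722 genes tested were. In the fit that adds a block for the replicate number, 21 of the 42 were called lower and 0 higher, where 8.60% of all genes were called lower and 8.85% higher. The 21 included the 4. This fit tested the same filtered set, with pairs read from these data. Of the 83 members, 63 were highest in B220− replicate 3, so the segments are not separate evidence. The count of 21 is thus a description and supports nothing about the members. The filter asked for 0.626 CPM in 3 libraries, and the 4 called members are exactly those that reached it in all 3 B220− and in 0 B220+ libraries. Of the 119 genes of the whole table that passed in this way, 75.6% were called lower, against 4.99% of the other 14603, so the count of 4 is given as a description and supports nothing about the members. Both the count without the block and the set tested changed with single libraries. It was 18 of 66 tested members without B220− replicate 1, 2 of 49 without B220− replicate 2 and 2 of 49 without B220− replicate 3. Without B220+ replicate 1, 2 or 3 it was 3 of 73, 1 of 67 and 5 of 64. Of all genes, 4.64%, 5.54%, 3.85%, 4.33%, 3.66% and 4.26% were called lower in these 6 fits, in the same order. With a library left out the filter asked for 2 libraries, so a member could pass through its high B220− libraries alone. Igkv8-30, not tested with all 6 libraries, had at most 0.453 CPM in B220+ libraries and was called in 1 fit with a library left out. These counts are therefore a description too and support nothing about the members. Among the segments named below, Ighv1-26 (edgeR adjusted p = 8.52e-06), Igkv8-27 (0.000779), Igkv6-23 (0.0016), Ighv3-6 (0.0265) and Ighv1-22 (0.048) were called without B220− replicate 1 but not with all 6 libraries, and Ighv1-22 also without B220+ replicate 3 (0.00716).

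**Figure D2:**
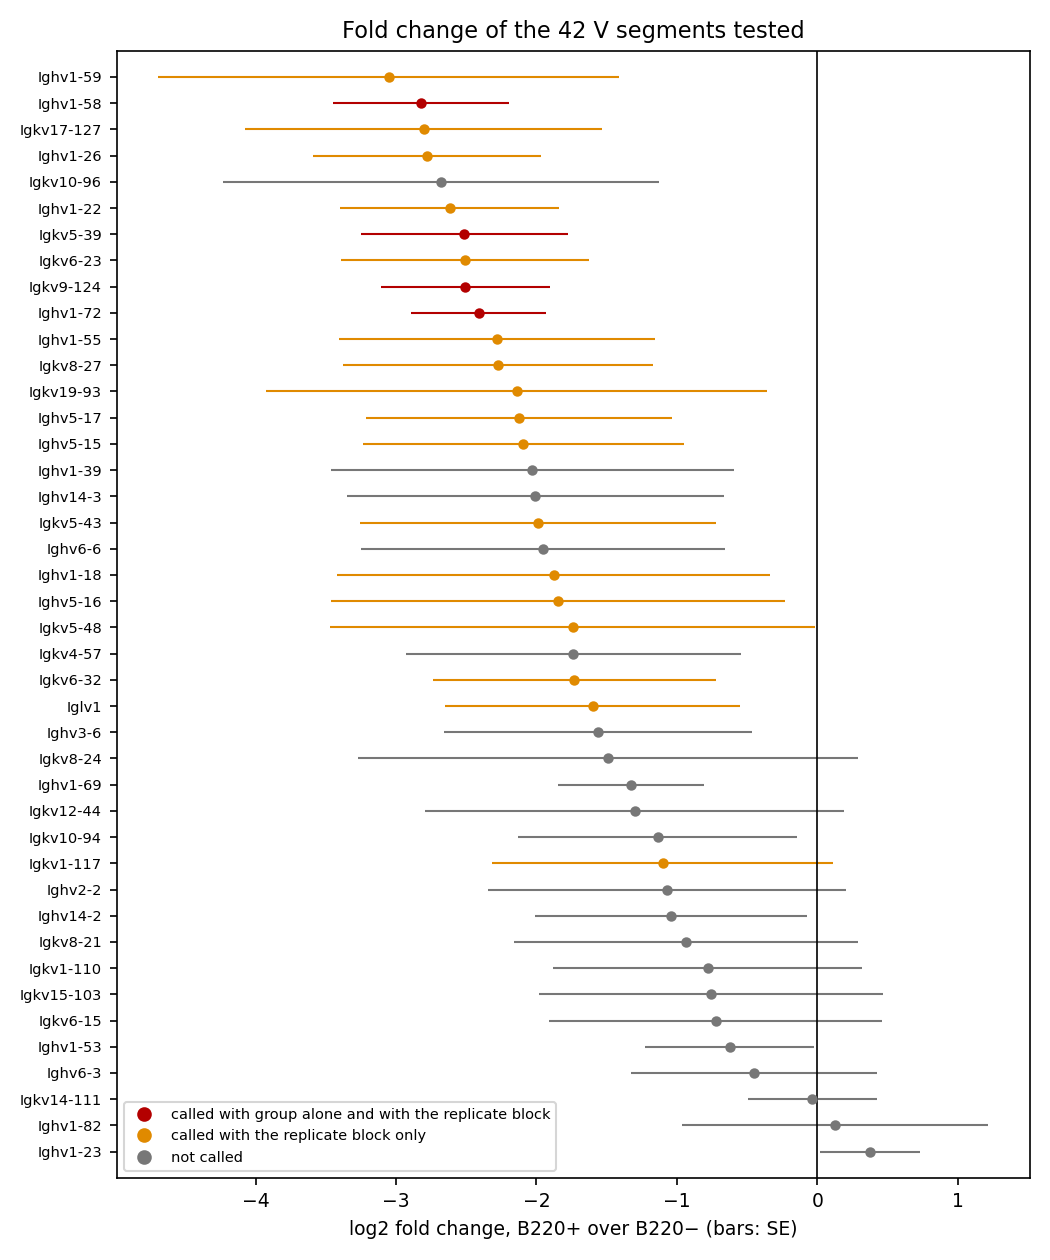
The log2 fold change, B220+ over B220−, of each of the 42 V segments tested, with bars of 1 standard error (SE), coloured by whether the segment was called with the group alone and with the replicate block (red), with the block only (orange) or not at all (grey). All but Ighv1-23 and Ighv1-82 lie below 0, with a median of −1.79, and the 4 called without the block have shorter bars than most.

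Over all 83 members, tested or not, the mean level was lower in B220+ for 78 and higher for 5. Members were chosen by summed counts, of which B220− replicate 3 held 2785 of 7833, so segments high in that library were favoured. The segments are not separate evidence, and this count is a description only. The median log2 ratio of the B220+ mean over the B220− mean was −1.68, with −1.76 for heavy and −1.53 for kappa segments. The groups did not overlap for 9 members (10.8%), all lower in B220+, where 13.9% of all genes tested were lower without overlap, so this share is near the background. Of the 42 tested members, 7 were lower without overlap (16.7%). The level was lower in B220+ in every same-numbered pair for 29 of the 83 members (34.9%). Among the 42 tested members it was so for 21 (50.0%), against 24.3% of all genes tested. These 21 include the 4 called members, which passed the filter through B220− libraries alone. The level was higher in B220+ in every pair for 1 member, Ighv1-23, against 24.1% of all genes tested. B220− replicate 3 was the highest of the 6 libraries for 63 members, B220− replicate 2 for 12 and B220+ replicate 3 for 5. Members with no count numbered 26, 12 and 1 in B220+ libraries and 21, 3 and 0 in B220− libraries, and 40 members had counts in all 6.

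**Figure D3:**
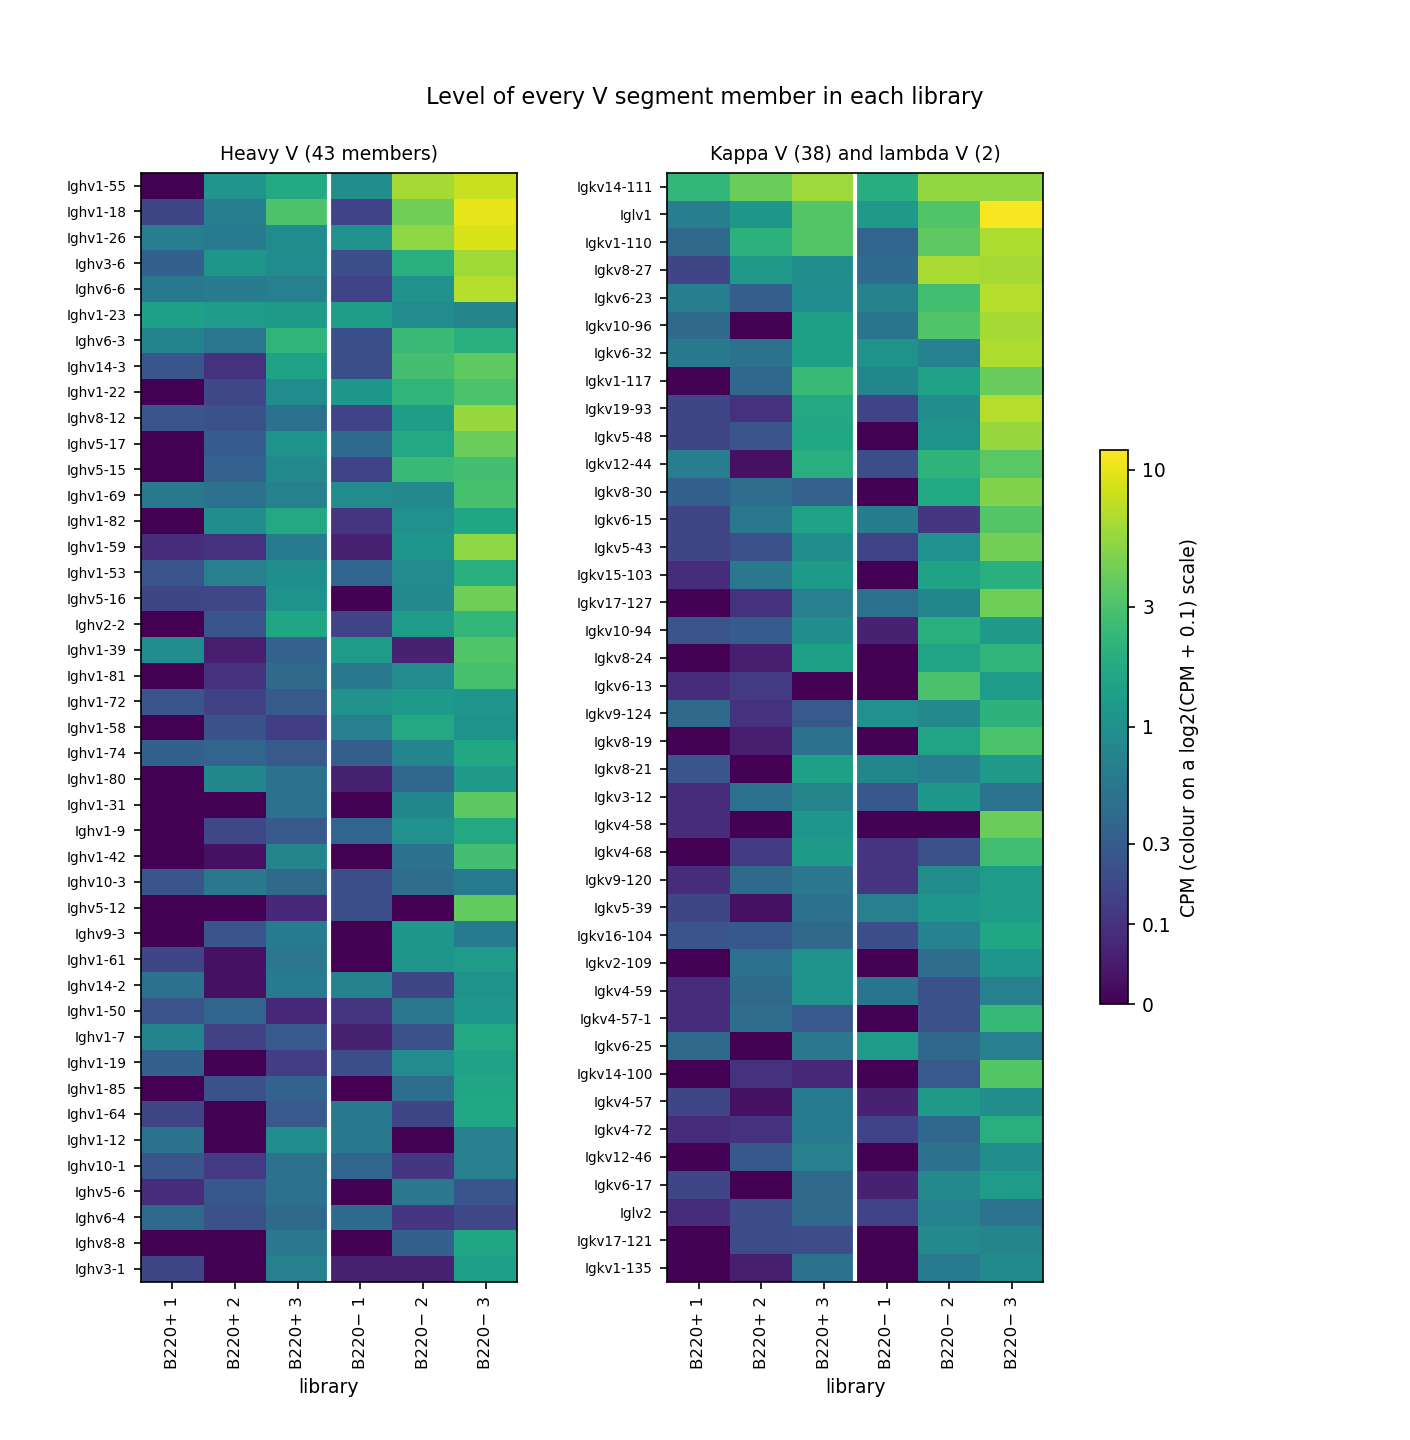
CPM of each of the 83 V segments (rows, from most to fewest summed counts within each panel) in the 6 libraries (columns, B220+ left of the white line and B220− right of it), with colour on a log2(CPM + 0.1) scale. The B220− replicate 3 column is brightest for 63 members, B220+ replicate 1 is darkest with 26 members at 0 counts, and Ighv1-23 keeps within 0.785 to 1.44 CPM across the row.

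The 4 segments called lower in B220+ without the block were of low abundance, and none had overlapping groups. Since each passed the filter through its B220− libraries alone, the adjusted p with a filter on the summed count instead, at least 10 over the 6 libraries, is given beside each. With that summed filter Ighv1-9 (edgeR adjusted p = 0.0385) and Ighv1-81 (0.0468), not tested under the main filter, were also called lower in B220+. Both are named after their values were seen. Their groups did not overlap, and DESeq2 gave adjusted p-values of 0.0315 and 0.0063. Without B220+ replicate 2 the edgeR adjusted p was 0.1754 for Ighv1-9 and 0.2455 for Ighv1-81. Ighv1-72 (ENSMUSG00000096074, mm10 chr12:115757984-115758461, minus strand) had 0.254, 0.151 and 0.282 CPM in B220+ libraries and 1.02, 1.25 and 1.14 CPM in B220− libraries, from 3 to 22 counts. Its log2 fold change was −2.41 (SE 0.48, edgeR adjusted p = 0.0055, and 0.00895 with the summed filter), and without B220+ replicate 2 the adjusted p became 0.0654. Every B220+ value lay well under every B220− value, and the 3 B220− libraries lay close together. Ighv1-58 (ENSMUSG00000095889, chr12:115312166-115312599, minus strand) had 0, 0.226 and 0.141 CPM in B220+ libraries and 0.699, 1.70 and 1.05 CPM in B220− libraries. The count of 0 in B220+ replicate 1 allows up to 3 counts, or 0.254 CPM. Its log2 fold change was −2.83 (SE 0.63, edgeR adjusted p = 0.0105, and 0.00979 with the summed filter). Without B220− replicate 2 it did not pass the main filter and was not tested.

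Both called kappa segments lost the call in several fits with a library left out. Igkv9-124 (ENSMUSG00000096632, chr6:67942074-67942540, minus strand) had 0.424, 0.101 and 0.282 CPM in B220+ libraries and 1.02, 0.849 and 2.1 CPM in B220− libraries, which gives a log2 difference of −2.51 (SE 0.60, edgeR adjusted p = 0.0169, and 0.0177 with the summed filter). The groups did not overlap, but the call was lost without B220+ replicate 2 (adjusted p = 0.130), B220− replicate 3 (0.0974) or B220+ replicate 3 (0.0531). Igkv5-39 (ENSMUSG00000076569, chr6:69900424-69900977, minus strand) had 0.170, 0.0251 and 0.494 CPM in B220+ libraries and 0.699, 1.13 and 1.31 CPM in B220− libraries, which gives a log2 difference of −2.51 (SE 0.74, edgeR adjusted p = 0.0464, and 0.0574 with the summed filter). It was thus not called with the summed filter. It rested on 58 counts in all, DESeq2 gave an adjusted p of 0.0682, and the call was lost without B220+ replicate 2 (0.214), B220− replicate 3 (0.160) or B220+ replicate 1 (0.144).

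The abundant heavy segments were lower in B220+ in replicates 2 and 3. Ighv1-55 (287 counts summed) had 0, 1.11 and 1.77 CPM in B220+ libraries and 0.968, 6.22 and 7.86 CPM in B220− libraries. Ighv1-18 (262 counts) had 0.170, 0.679 and 3.04 CPM in B220+ libraries and 0.161, 4.19 and 9.86 CPM in B220− libraries. Ighv1-26 (258 counts) had 0.678, 0.604 and 0.918 CPM in B220+ libraries and 1.02, 5.26 and 8.81 CPM in B220− libraries. Of these, the groups overlapped for Ighv1-55 and Ighv1-18 and not for Ighv1-26, whose B220+ libraries were all under 1 CPM. Ighv1-26 had a log2 fold change of −2.78 (SE 0.81) with an edgeR adjusted p of 0.0973, and 0.00021 with the block. For Ighv1-55 the log2 fold change was −2.28 (edgeR adjusted p = 0.343, and 1.9e-05 with the block). For Ighv1-18 it was −1.88 (edgeR adjusted p = 0.591, and 2.3e-04 with the block), from −3.14 without B220+ replicate 3 to −0.79 without B220− replicate 3.

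The next 2 heavy segments, of other families, showed the same spread. Ighv3-6 (170 counts) had 0.339, 1.16 and 0.918 CPM in B220+ libraries and 0.215, 1.98 and 5.93 CPM in B220− libraries. Ighv6-6 (144 counts) had 0.593, 0.654 and 0.706 CPM in B220+ libraries and 0.161, 1.07 and 6.89 CPM in B220− libraries. In both, B220− replicate 1 was the lowest library and B220− replicate 3 the highest, so the B220+ values lay inside the B220− range. Neither was called (edgeR adjusted p = 0.505 for Ighv3-6 and 0.482 for Ighv6-6), and without B220− replicate 3 the log2 fold change of Ighv6-6 was 0.091 in place of −1.95.

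Igkv14-111 was the member with the most counts, and its group means were close. It had 460 counts and a mean of 11.2 CPM per kilobase of exon over the 6 libraries, ahead of Iglv1 at 8.84 and Ighv1-18 at 8.59. That rank comes from the B220+ libraries, where it averaged 4.04 CPM. In B220− libraries it averaged 4.22 CPM, below Iglv1 at 5.22, Ighv1-26 at 5.03, Ighv1-55 at 5.02, Ighv1-18 at 4.74 and Igkv8-27 at 4.34. Igkv14-111 (ENSMUSG00000095771, chr6:68256389-68256869, plus strand) had 2.29, 3.97 and 5.86 CPM in B220+ libraries and 1.88, 5.38 and 5.41 CPM in B220− libraries. Its groups overlapped, and its log2 fold change was −0.035 (SE 0.46, edgeR adjusted p = 0.977). Without it, the kappa sum was 3.10-fold lower in B220+ in place of 2.72-fold, and the sum of all V 3.15-fold in place of 2.95-fold, an alternative added after its values were seen.

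The other abundant kappa segments were lower in B220+ in replicates 2 and 3. Igkv1-110 (278 counts) had 0.424, 2.06 and 3.25 CPM in B220+ libraries and 0.377, 3.56 and 6.55 CPM in B220− libraries (edgeR adjusted p = 0.773). Igkv8-27 (256 counts) had 0.170, 1.21 and 0.989 CPM in B220+ libraries and 0.430, 6.39 and 6.20 CPM in B220− libraries (log2 fold change −2.28, edgeR adjusted p = 0.333, and 1.9e-05 with the block). Igkv6-23 (175 counts) had 0.678, 0.327 and 0.918 CPM in B220+ libraries and 0.753, 2.72 and 6.89 CPM in B220− libraries (log2 fold change −2.51, edgeR adjusted p = 0.151, and 0.0019 with the block). The groups overlapped in all 3, with B220− replicate 1 close to the B220+ values. Igkv10-96 (162 counts) had 0.424, 0 and 1.41 CPM in B220+ libraries and 0.538, 3.17 and 6.20 CPM in B220− libraries (edgeR adjusted p = 0.421, and 0.286 with the block).

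Lambda light chains were represented by Iglv1 and Iglv2, of the 3 lambda V segments in the table. Iglv1 (ENSMUSG00000076934, chr16:19085017-19085500, minus strand) held 89.3% of the lambda member counts. It had 0.678, 1.16 and 3.25 CPM in B220+ libraries and 1.24, 3.17 and 11.3 CPM in B220− libraries (log2 fold change −1.60, SE 1.05, edgeR adjusted p = 0.482, and 4.6e-04 with the block). Without B220− replicate 3 the log2 fold change of Iglv1 was −0.40, and without B220+ replicate 3 it was −2.35. The groups overlapped, and the level was lower in B220+ in every same-numbered pair. Iglv2, with 37 counts, had 0.0847, 0.201 and 0.424 CPM in B220+ libraries and 0.161, 0.736 and 0.524 CPM in B220− libraries and did not pass the filter. An antisense gene, 2010309G21Rik, overlaps Iglv1 on the other strand, with 52 counts and no shared exon.

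Of the 42 tested segments, Ighv1-23 and Ighv1-82 had fold changes above 0. Ighv1-23 had 1.44, 1.31 and 1.27 CPM in B220+ libraries and 1.34, 0.905 and 0.785 CPM in B220− libraries (log2 fold change 0.37, SE 0.36; edgeR adjusted p = 0.615). Ighv1-82 had 0, 0.981 and 1.70 CPM in B220+ libraries and 0.108, 1.02 and 1.57 CPM in B220− libraries (log2 fold change 0.13, edgeR adjusted p = 0.966), and the sign turned to −0.076 with the block. Ighv1-23 is set beside Ighv1-22, a pair chosen after their values were seen, because these segments of the same family lie 18.2 kb apart on chromosome 12 and were counted differently. Ighv1-22 had 0, 0.176 and 0.918 CPM in B220+ libraries and 1.18, 2.21 and 2.97 CPM in B220− libraries, with no overlap (log2 fold change −2.62, SE 0.78, edgeR adjusted p = 0.0699, and 7.5e-04 with the block). The last 150 bases of both transcripts are shown, at chr12:114746273-114746706 for Ighv1-22 and chr12:114764450-114764883 for Ighv1-23, both on the minus strand, with the 19 bases that differ in capitals.
Ighv1-22: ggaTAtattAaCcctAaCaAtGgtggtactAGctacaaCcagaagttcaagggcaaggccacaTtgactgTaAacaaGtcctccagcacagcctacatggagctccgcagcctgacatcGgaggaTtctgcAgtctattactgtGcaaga
Ighv1-23: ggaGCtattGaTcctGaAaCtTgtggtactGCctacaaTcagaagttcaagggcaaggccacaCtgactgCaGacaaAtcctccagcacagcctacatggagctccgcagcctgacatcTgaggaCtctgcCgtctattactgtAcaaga
Over their whole transcripts of 351 bases they are 86.0% identical. Ighv1-22 is 96.6% identical to Ighv1-26 and 96.0% to Ighv1-18, the abundant heavy segments above, whereas Ighv1-23 is 86.0% identical to each of them and 98.0% to Ighv1-15.

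Near-identical copies limit what a count of 1 segment can say. The closest other V segment was 72.0% to 98.6% identical (median 92.3%). For 60 members it was at least 90% identical and for 26 at least 95%. Reads that match several segments could have been split, dropped or given to a neighbour, and somatic mutation of rearranged V genes adds mismatches, so the levels of single segments are uncertain to that extent. Among the abundant segments, Ighv1-18 and Ighv1-26 are 96.9% identical to each other, and Igkv1-110 is 96.8% identical to Igkv1-117. Of the called segments, Ighv1-58 (89.2%) and Igkv5-39 (82.8%) have more distant nearest copies than Ighv1-72 (97.0%, Ighv1-62-3) and Igkv9-124 (95.2%, Igkv9-120). Exon lengths were close, from 347 to 415 bases.

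How evenly the segments were used differed between libraries. Igkv14-111 was the most abundant member in all B220+ libraries, with 11.0%, 13.1% and 7.49% of the V counts, and in B220− replicate 1, with 6.25% (exact 95% interval 4.39% to 8.59%). In B220− replicates 2 and 3 the most abundant members were Igkv8-27 (5.86%) and Iglv1 (4.63%). Among kappa segments alone Igkv14-111 took 25.2%, 26.7% and 14.0% in B220+ libraries, against 14.6% in B220− replicate 1 and 10.2% in B220− replicate 2. In B220− replicate 3 it had 62 of 1300 kappa counts, behind Igkv19-93 (6.15%) and Igkv6-23 (6.08%). Ighv1-23 led the heavy segments in B220+ replicates 1 and 2 (13.1% and 9.25% of heavy counts) and in B220− replicate 1 (8.50%). The effective number of segments, the reciprocal of the summed squared shares, was 28.6, 26.0 and 45.0 in B220+ libraries and 35.8, 40.7 and 50.4 in B220− libraries, so the groups overlapped. The number of members with a count depends on how many counts a library holds. Thinned to the 246 counts of the smallest, a library would on average hold 57.0, 56.4 and 69.8 members with a count in B220+ and 54.3, 64.4 and 68.4 in B220−, as computed exactly from the counts.

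Segment levels were also compared between libraries of the same number. Ighv1-39, chosen here after its values were seen, had 11, 2 and 5 counts in B220+ replicates 1, 2 and 3 and 24, 1 and 36 counts in B220− replicates 1, 2 and 3, so that it was lowest in replicate 2 of both groups, although B220+ replicate 2 was the deepest library. Across the 83 members, Spearman's rho of the levels was 0.488, 0.389 and 0.439 between same-numbered B220+ and B220− libraries. It lay between 0.129 and 0.352 within B220+, between 0.148 and 0.458 within B220−, and between 0.098 and 0.409 for the remaining pairs. The points are the same segments in every library and share their lengths and their close copies, and the counts are sparse, so these values are a description only. Of the members, Igkv14-100 (48 counts) and Ighv5-12 (47 counts) had at least 80% of their summed level in 1 library, 88.0% and 92.8% in B220− replicate 3.

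D and J segments were nearly absent from the counts. Of the 33 D and J rows, 28 had no count, and the other 5 held 16 counts together. The highest, Ighj2, had 0, 3 and 4 counts in B220+ libraries and 0, 1 and 0 counts in B220− libraries. Ighj4 had 1, 3 and 0 counts in B220+ libraries and 0, 0 and 1 count in B220− libraries. Ighj1, Igkj1 and Ighd4-1 had 1 count each. These rows are short, from 10 to 100 bases, and a count of 0 allows up to 3 counts in a library. The J transcripts of Ighj2 and Ighj4 are printed whole to show their size, at chr12:113429468-113429515 for Ighj2, whose row of 100 bases also covers a transcript of another type, and chr12:113428514-113428567 for Ighj4, on the minus strand.
Ighj2: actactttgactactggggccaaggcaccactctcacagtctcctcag
Ighj4: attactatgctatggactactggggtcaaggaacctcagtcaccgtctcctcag

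By family, Ighv1 held most of the heavy members. The Ighv1 family, the largest heavy family of the mouse, had 25 members of 53 segments in the table and 62.1% of the heavy member counts, with means of 11.3 ± 5.95 CPM in B220+ and 38.8 ± 29.7 CPM in B220− libraries (SD, n = 3 each). Ighv5 followed with 10.2% of heavy counts and Ighv6 with 8.26%. Among kappa families, Igkv6 held 15.7%, Igkv8 15.3%, Igkv14 13.5% and Igkv1 11.8% of counts. Igkv4, with 26 segments in the table, had 6 members and 8.62% of kappa counts. The ratio of means ran from 1.32-fold lower in B220+ for Igkv14 to 4.23-fold lower for Igkv8 among these kappa families, and no test of the difference was made.

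Members lay along the whole of the heavy and kappa loci. Heavy members began 159 kb from Ighj1 and reached 2570 kb, and kappa members ran from 204 to 3112 kb from Igkj1. Of the 57 heavy V rows nearer the J segments 18 were members, with 36.7% of heavy member counts, and of the 56 rows farther away 25 were members, with 63.3%. For kappa, the 50 nearer rows held 21 members and the 50 farther rows 17, each with 50.0% of counts. Kappa V segments lie in both orientations, and those on the plus strand of the chromosome (14 members of 38 rows, Igkv14-111 and Igkv1-110 among them) summed to 10.4 ± 7.25 CPM in B220+ and 19.3 ± 14.0 CPM in B220− libraries. Those on the minus strand (24 members of 62 rows) summed to 11.5 ± 10.5 CPM in B220+ and 40.3 ± 36.8 CPM in B220− libraries (SD, n = 3 each). For both strands the SD of the B220− libraries was larger than the difference between the group means, which was not tested.

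**Figure D4:**
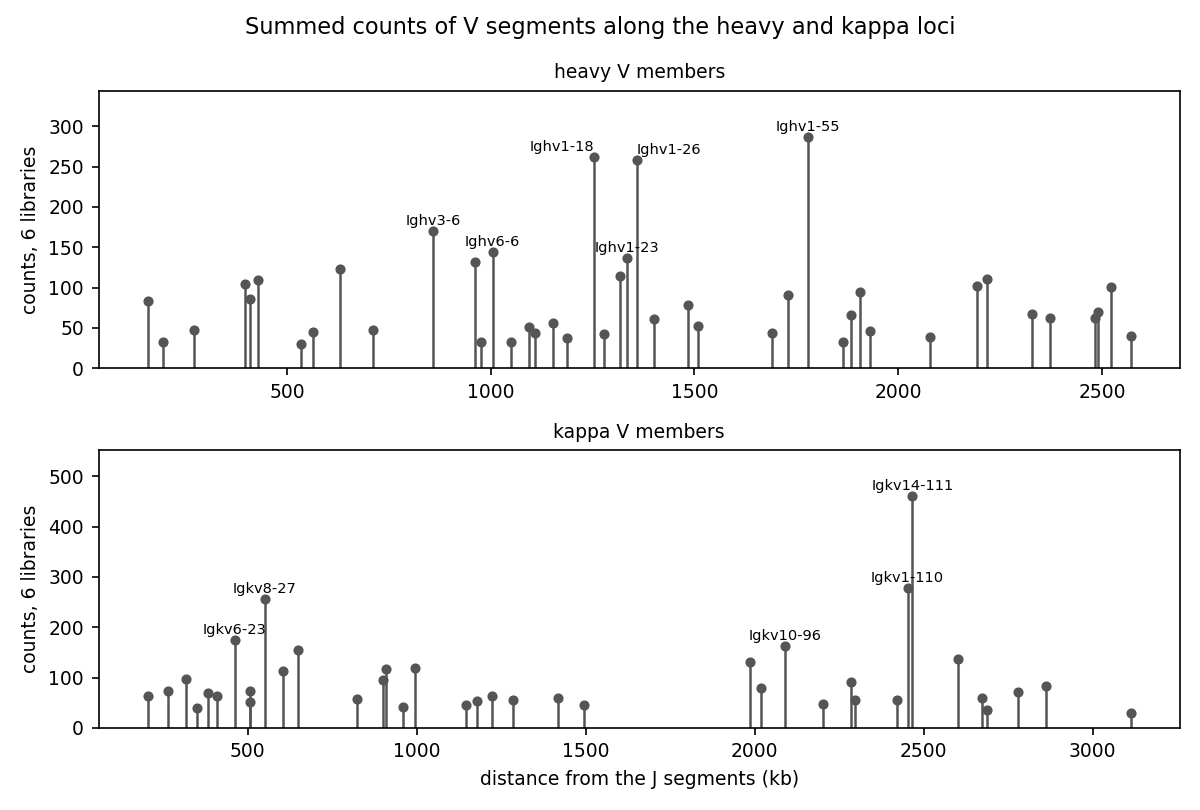
Counts summed over the 6 libraries (vertical axis) for each heavy V member (top) and kappa V member (bottom) against its distance from the J segments in kilobases (kb). The members span 159 to 2570 kb in the heavy locus and 204 to 3112 kb in the kappa locus, and the most abundant ones, Ighv1-55 at 287 counts and Igkv14-111 at 460 counts, do not lie at the ends nearest J.

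The line at 30 counts falls in a smooth run of values. Just inside it were Ighv3-1 and Igkv1-135 with 30 counts and Ighv10-1 with 32. Just outside it were Igkv4-55 with 28 and Igkv3-10 and Ighv1-52 with 26.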

How the data were processed

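RNA from sorted cells of 6 samples was extracted with a PureLink kit and made into libraries with a directional kit, per the labels' protocols. The authors deposited raw gene counts, in whole numbers and without normalization. Per the submitters' processing notes reads were counted with featureCounts 1.6.3 on mm10, after HISAT2 2.1.0; FastQC 0.11.7, SAMtools 1.9 and Trimmomatic 0.38 are also named. Options, annotation release, use of strand and treatment of reads with several matches are not stated in those notes or the labels.

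Samples were grouped by their titles. Members are rows of immunoglobulin V, D or J biotype with 30 or more counts over the 6 libraries. The members, the lists and the rule for naming were chosen with earlier results of these data known. The rule names the 5 heavy and kappa and 3 lambda members with the most counts, every D or J member, every called member, 3 rows on each side of the threshold, and members with 80% of their level in 1 library. Constant genes, Jchain, called markers and recombination genes are named too, some listed genes are not reported here, and others are said to be chosen after their values were seen.

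Counts were tested with edgeR 4.0.16 in R 4.3.3 (trimmed-mean scaling, factors 0.990 to 1.01, filterByExpr with a minimum count of 10 and total of 15, robust quasi-likelihood fit on the group alone, Benjamini-Hochberg over 14722 genes, called under 0.05). Of these genes 1639 (11.1%) were called. Fold changes are B220+ over B220−. The SE of an edgeR fold change is the size of the log2 fold change divided by the square root of the test's F statistic. DESeq2 1.42.0, other filters and scalings, each library left out and the replicate number as a block were alternatives. Same-numbered libraries deviated from their group means together (correlation across genes 0.295, 0.246 and 0.272, others −0.203 to −0.067), so the numbers were taken as pairs, from the data and not the labels. Deviations within a group cancel out, so the negative values partly follow from the positive ones. The p-values with the block thus rest on pairs read from the same data. The table's columns carry other numbers. Tested on simulated data of 14478 genes, the test recovered 75% of 2-fold and 99% of 4-fold changes, with 15 of 189 calls false. Recovery at the low counts and wide spread between libraries of the V segments was not tested. These 2 shares are therefore not given for the members. No library repeats another of its group within counting noise (chi-square divided by its degrees of freedom, 7.37 to 16.2). All 83 members had the coordinates of GENCODE M21, and identities are edit distances between transcripts (edlib 1.3.9.post1). Intervals are exact Poisson or binomial at 95%.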

Additional observations from a re-analysis of the deposited data

How the results depend on the processing

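With the replicate number as a block, 2569 genes were called in place of 1639 and 21 members in place of 4. All 83 members were tested in 3 alternatives, with 9 called by DESeq2, 17 in edgeR with no filter on low counts and 5 with a minimum of 10 counts in total, where 5.03%, 4.23% and 4.51% of all genes were called lower. The 5 included Ighv1-9 and Ighv1-81, which the main filter left out, and did not include all of the 4. With DESeq2 size factors in edgeR 4 were called. Leaving out 1 library gave 970 (B220+ replicate 2) to 1789 genes, 1 to 18 members and a ratio of all V means, B220+ over B220−, of 0.201 to 0.620. By class that range was 0.203 to 0.565 for heavy, 0.201 to 0.669 for kappa and 0.186 to 0.728 for lambda segments. Other thresholds for members, pseudogenes added and plain library totals kept the ratio of all V between 0.335 and 0.345, against 0.339. The mean share of the most abundant segment in B220+ libraries was 10.5%, and 6.69% with that segment left out. The mean effective number in B220− libraries was 42.3, and 51.3 with segments of 10 or more counts. The sign turned for Ighv1-82 with the block (−0.076), and on leaving out a library for 9 of the 42 tested members, among them Ighv1-82 (−0.47 to 0.73), Igkv14-111 (−0.40 to 0.22), Ighv6-6 (−2.54 to 0.091) and Igkv6-15 (−1.48 to 0.93). The causes of these changes were not tested. Of the 83 members, 43 had no count in at least 1 library, 12 of them in the deepest library and 0 in the shallowest.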

Other observations

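Adding the V segments under 30 counts changed the sums little. With all segment rows summed, the level was 48.6 CPM in B220+ and 144 CPM in B220− libraries on average, 2.96-fold lower in B220+, against 2.95-fold for the 83 members. Adding V pseudogenes to the members gave 44.3 CPM in B220+ and 128 CPM in B220− libraries. The IgG constant genes Ighg1, Ighg2b, Ighg2c and Ighg3 were highest in B220+ replicate 3, whereas the V sums were highest in B220− replicate 3. Ighg2b, the IgG2b heavy constant region, stood at 5.17, 13.6 and 78.5 CPM in B220+ libraries and at 4.57, 4.30 and 9.95 CPM in B220− libraries (edgeR adjusted p = 0.382). Ighg2c was at 0.170, 0.528 and 2.54 CPM in B220+ libraries and at 0 in all 3 B220− libraries, where 0 allows up to 0.161, 0.170 and 0.262 CPM.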
